A study of Mus musculus with 4 samples.

Results

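The genes described here are the collagens, the matrix metalloproteinases (MMPs), their tissue inhibitors (TIMPs) and 8 further stromal genes: Fn1, Sparc, Acta2, Dcn, Lum, Bgn, Spp1 and Postn. Members were picked by symbol, with no threshold on a measured value, but the list was drawn up with earlier results of these data known. The rule took every symbol made of Col, a number, a and a number, every symbol made of Mmp and a number, Timp with a number up to 4, and the 8 genes named above. It found 77 of the 24421 genes in the deposited count tables. RNA came from regulatory T cells (Tregs), the Foxp3-expressing T cells that restrain immune responses, of strain B6 Foxp3-DTR/GFP, in which the Foxp3 gene drives a green fluorescent protein and a diphtheria toxin receptor. CD45.1+ mice had received EG7.1.15 tumor cells into the peritoneal cavity and were joined by surgery to tumor-free CD45.1- partners, and Tregs of partner origin were taken from the tumor-bearing mouse on day 14. Both groups share these alleles, the tumor, the surgery and the sort (live, CD45.1-, CD45.2+, B220-, CD4+, CD25+ and GFP+), and differ in the tissue: the omental tumors (libraries OP2 and OP3, for mouse 2 and mouse 3) or the spleen (SP2 and SP3). Each tissue has 2 libraries, 1 per mouse, and the question is how Tregs recruited to omental tumors differ from those recruited to the spleen of the same animal.

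Collagens are secreted proteins with triple-helical stretches that form the fibrils, networks and basement membranes of connective tissue, and fibroblasts, mural cells and endothelial cells make most of them. MMPs are zinc proteases that cut collagen and other matrix proteins, leukocytes being a rich source of some of them, and TIMPs bind and block MMPs. Osteopontin (Spp1), Sparc and periostin (Postn) are matricellular proteins, which signal to cells rather than carry load, and activated T cells and macrophages are known to make osteopontin.

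The libraries held 6660230 and 3764508 counts in genes for the omental tumors of mouse 2 and mouse 3, and 9989005 and 13598631 for the spleens. Throughout, values are given for mouse 2 first and mouse 3 second, levels are CPM, the usual count scaled to library size (here with TMM factors), and 1 count equals between 0.0912 and 0.252 CPM. The sort gene Foxp3 was present in all 4 libraries, at 81.1 and 84.0 CPM in omental tumor and 113 and 144 CPM in spleen. Il2ra (CD25) stood at 688 and 318 against 697 and 883 CPM, Cd4 at 375 and 114 against 566 and 1004 CPM and Ptprc (CD45) at 2070 and 922 against 2587 and 4020 CPM, with none of the 4 sort genes called. The 8 T lineage genes summed to 3426 and 4276 CPM in omental tumor and 4996 and 8217 CPM in spleen. Their median log2 fold change, omental tumor over spleen, was -0.86, with 0 positive and 0 called. Entries assigned to no gene were 48.9% of all in OP2 and 44.2% in SP2, against 27.3% in OP3 and 24.8% in SP3. In bulk RNA, a change in the number of cells that carry a transcript and a change in RNA per cell cannot be told apart. The p-values of the edgeR test for tissue alone rest on a spread pooled across genes in these libraries. They do not reflect a gene's own spread between mice.

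The members' summed level was higher in the omental library than in the spleen library of each mouse. Summed over the 77 members, their counts were 7552 and 5258 against 3363 and 1579 for spleen, or 988 and 1327 CPM against 328 and 144 CPM. The make-up of that sum differed between the omental libraries. Osteopontin alone held 61.9% of the member counts in OP3, and between 0.940% and 2.97% in the other libraries. Without Spp1 the sums were 979 and 506 CPM in omental tumor and 318 and 140 CPM in spleen, so the omental library of each mouse still stood above its spleen library.

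Of the 64 members with enough counts to test, 5 were higher and 1 was lower in omental tumor by edgeR's quasi-likelihood test at an adjusted p of 0.05. Over all 16322 genes tested, 1.09% were called higher and 0.227% lower. The 5 that rose were Spp1, Sparc, Fn1, Col3a1 and Acta2, and the MMP gene Mmp11 fell. With the mouse as a replicate block, 7 members were called higher, against 1.48% of all genes, and 1 lower, against 0.41%. Fn1, Sparc, Acta2 and Mmp11 were called in both fits, Spp1 and Col3a1 were called without the block only, and Col4a1, Col4a2, Col6a1 and Timp1 with it only. DESeq2 called Acta2, Col3a1, Fn1 and Mmp11, and also Col4a1, Col4a2 and Mmp9, among 246 genes higher and 124 lower of all 16322. Limma-voom called Acta2, Fn1, Sparc and Spp1, among 107 genes higher and 56 lower. Scaling by library gene totals alone called 0 members. In the edgeR fit without the block, 16 of the 64 members had an unadjusted p under 0.05, beside 1469 of all 16322 genes tested. Log2 fold changes were positive for 56 of the 64 (8751 of all 16322 genes), with a median of 1.26 beside 0.11 for all genes tested. Both depend on single libraries: without OP2, 38 of the 64 were positive and the median was 0.195 (all genes -0.32), and the median was 2.61 without SP2. Members tested had to pass a minimum count, which a transcript can do through its higher tissue alone. In 24 of the 64, both omental libraries stood above both spleen libraries, as in 16.4% of all genes tested, and in 4 both stood below, as in 25.4%.

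**Figure D1:**
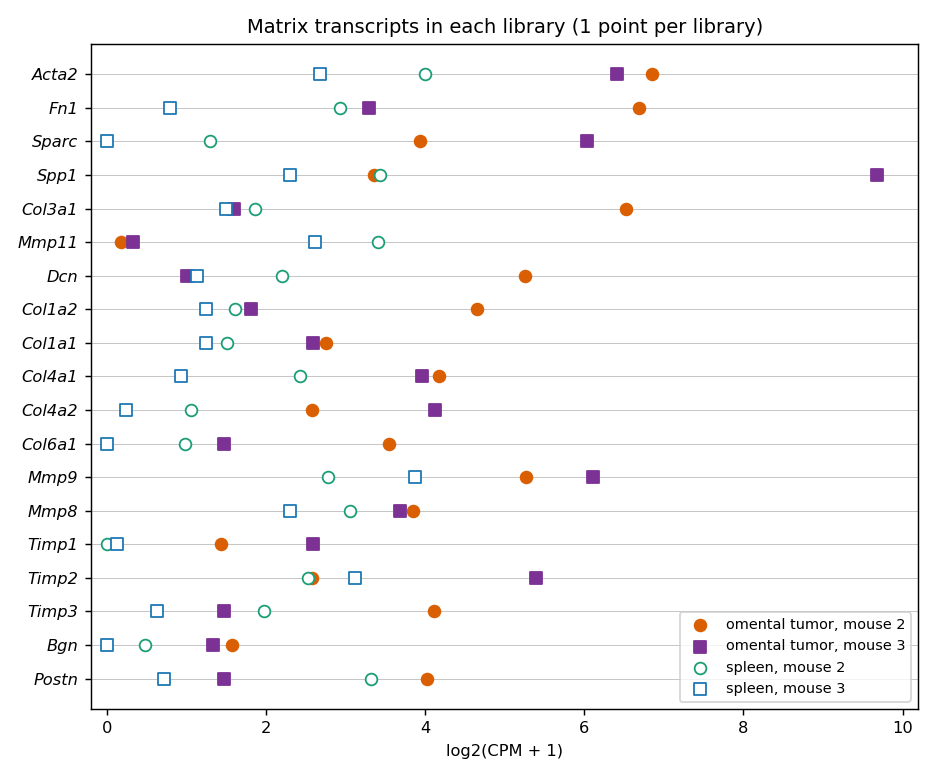
CPM of 19 matrix transcripts on the log2(CPM + 1) axis, with filled points for omental tumor, open points for spleen, circles for mouse 2 and squares for mouse 3. Acta2, Fn1 and Sparc are higher in both omental libraries than in both spleen libraries, while the omental points of Spp1 and Col3a1 lie far apart.

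Promoters are printed for called members, 2 that rose and 1 that fell, to show the sequence before their starts. RefSeq's table (GRCm38.p6, the build also named mm10) held 60 of the 77 members. Each line gives the 250 bases that precede the annotated start, 5′ to 3′ on the gene's strand, for Spp1, Col3a1 and Mmp11, the called members whose window met no annotated exon. Acta2 and Sparc were left out for such an overlap, and Fn1 is named only. RefSeq lists 2 starts for Spp1, of which 1 is shown, and its Mmp11 start lies inside the span that GENCODE release M21 gives that gene. The windows are chr5:104434861-104435110 on the plus strand for Spp1, chr1:45311288-45311537 on the plus strand for Col3a1, and chr10:75932503-75932752 on the minus strand for Mmp11. Capitals mark matches, on either strand, to the TATA box (letters TATAAA), the CCAAT box, the AP-1 motif (letters TGANTCA) or the CArG box, the last 2 of which had no match in these windows.
Spp1: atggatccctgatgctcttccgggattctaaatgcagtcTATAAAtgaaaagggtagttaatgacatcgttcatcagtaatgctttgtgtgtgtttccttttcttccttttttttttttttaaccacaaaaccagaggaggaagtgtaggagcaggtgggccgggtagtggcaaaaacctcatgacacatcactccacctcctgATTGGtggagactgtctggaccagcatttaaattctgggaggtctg
Col3a1: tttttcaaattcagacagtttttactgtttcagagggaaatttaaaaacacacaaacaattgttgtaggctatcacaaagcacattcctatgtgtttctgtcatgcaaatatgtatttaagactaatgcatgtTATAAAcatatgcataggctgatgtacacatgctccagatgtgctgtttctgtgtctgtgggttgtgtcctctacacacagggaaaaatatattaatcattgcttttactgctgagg
Mmp11: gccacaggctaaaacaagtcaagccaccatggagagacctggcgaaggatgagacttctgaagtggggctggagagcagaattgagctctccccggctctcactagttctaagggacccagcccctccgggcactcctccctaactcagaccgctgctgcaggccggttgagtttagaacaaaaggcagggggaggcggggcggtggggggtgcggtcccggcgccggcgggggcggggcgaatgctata
The Spp1 window held TATAAA from base 211 to base 206 before the start and CCAAT on the opposite strand from base 46 to base 42. TATAAA stood from base 117 to base 112 before the start of Col3a1, and Mmp11 had no match to any of the 4 motifs. Of the 32851 RefSeq promoters, 12.4% hold the TATA box letters in the same window on either strand, 33.8% those of the CCAAT box, 6.75% those of the AP-1 motif and 1.47% a CArG box.

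Matrix glycoproteins held 3 of the 5 rises, and 4 of 4 were tested. Spp1 (chromosome 5, 104435118 to 104441050), which encodes osteopontin, had 71 and 3253 counts in omental tumor and 100 and 43 counts in spleen, or 9.29 and 821 CPM against 9.75 and 3.92 CPM. Only OP3 stood high, and OP2 lay within the spleen range. The log2 fold change was 5.92 (SE 1.01, adjusted p = 2.92e-06), and it was 3.82 with the replicate block (adjusted p = 0.189). Without OP3 it was 0.42 (adjusted p = 0.9501), and without SP2 or SP3 the adjusted p was 0.0642 or 0.187. Exons of a predicted gene on the same strand cover 18.8% of the Spp1 exon length in GENCODE release M21, so reads there may have been counted as ambiguous.

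Sparc (chromosome 11, 55394500 to 55423183) encodes a collagen-binding matricellular protein. It had 109 and 255 counts in omental tumor and 15 and 0 in spleen, or 14.3 and 64.3 CPM against 1.46 and 0 CPM. The groups did not overlap, and within each mouse the omental library was higher. The log2 fold change was 5.73 (SE 0.998, adjusted p = 5.51e-06), and 5.82 with the replicate block (adjusted p = 5.85e-05). Without OP3 it was 4.24 (adjusted p = 0.323), and without SP3 the adjusted p was 0.0626.

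Fn1 (chromosome 1, 71585520 to 71653200) encodes fibronectin, the glycoprotein that integrins grip and on which collagen fibrils assemble. Its counts were 783 and 35 in omental tumor against 68 and 8 in spleen, or 102 and 8.83 CPM against 6.63 and 0.730 CPM. Omental tumor stood above spleen in both mice without overlap, although the mouse 3 omental level was only just above the mouse 2 spleen level. The log2 fold change was 3.92 (SE 0.87, adjusted p = 0.00115). It was 1.26 without OP2 (adjusted p = 0.743), and without SP2 or SP3 the adjusted p was 0.05765 or 0.583. Postn, which encodes periostin, stood at 15.3 and 1.77 CPM in omental tumor and 8.97 and 0.638 CPM in spleen, with mouse 2 higher in both tissues (log2 fold change 0.85, adjusted p = 0.833).

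Acta2, the smooth muscle actin of mural cells and myofibroblasts (chromosome 19, 34241090 to 34255590), had the closest omental levels of the 6 called members. It had 877 and 333 counts in omental tumor and 154 and 59 in spleen, or 115 and 84.0 CPM against 15.0 and 5.38 CPM. Both omental libraries were well above both spleen libraries. Omental tumor averaged 99.4 ± 21.7 CPM and spleen 10.1996 ± 6.82 CPM (SD, n = 2). The fitted log2 difference was 3.28 (SE 0.83, adjusted p = 0.00823), and 3.44 with the replicate block (adjusted p = 0.0111). It kept its call without either omental library, and the adjusted p was 0.356 without SP2 and 0.684 without SP3. Other mural genes did not share this level. Myh11, the smooth muscle myosin, stood at 13.0 and 1.26 CPM in omental tumor and 3.90 and 0.730 CPM in spleen. Cnn1, a smooth muscle calponin, had 4 and 0 counts against 3 and 1. The tissues overlapped for these genes and for Rgs5 and Tagln. Des (3.79 and 1.01 against 0.683 and 0.274 CPM), Notch3 (2.88 and 1.01 against 0.293 and 0.274 CPM) and Cspg4 (1.05 and 1.77 against 0.683 and 0.456 CPM) were below the count filter. Their omental libraries both stood above both spleens.

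Fibrillar collagens, the rope-forming family, had 10 positive log2 fold changes of 11, a median of 1.74 and 1 call. Col3a1, the fibril collagen of soft and healing tissue (chromosome 1, 45311538 to 45349706), had 695 and 8 counts in omental tumor and 27 and 20 in spleen, or 90.9 and 2.02 CPM against 2.63 and 1.82 CPM. A single library, OP2, stood apart, and OP3 lay within the spleen range. The log2 fold change was 4.38 (SE 0.90, adjusted p = 0.000297), and 2.83 with the replicate block (adjusted p = 0.167). Without OP2 it turned to -0.14 (adjusted p = 0.9985), and without SP2 or SP3 the adjusted p was 0.290 or 0.198.

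The chains of type I collagen, the main protein of scar and tendon, differed from each other. Col1a2 stood at 24.1 and 2.52 CPM in omental tumor and 2.05 and 1.37 CPM in spleen (log2 fold change 2.96, adjusted p = 0.189), with mouse 2 again the high library. Col1a1 stood at 5.76 and 5.05 CPM against 1.85 and 1.37 CPM (1.74, adjusted p = 0.722), so that omental libraries were alike and above both spleens, at counts of 44 and 20 against 19 and 15. Neither chain passed the test.

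Among the other fibrillar chains, Col2a1, the collagen of cartilage, had 9 and 8 counts in omental tumor and 0 and 3 in spleen. The ratio of the summed counts was 10.4, with a 95% counting interval from 3.00 to 55.2 (exact binomial) and an adjusted p of 0.586. Col27a1 stood at 9.29 and 2.52 CPM against 1.76 and 1.37 CPM (log2 fold change 1.92, adjusted p = 0.673). Higher levels with no separation of the tissues were seen for Col11a1, a minor cartilage fibril chain, at 23.6 and 6.31 CPM in omental tumor and 15.5 and 6.02 CPM in spleen, and for Col5a2, which helps start type I fibrils, at 17.9 and 4.04 against 9.46 and 1.19 CPM. In both of these the mouse 2 library was the higher one in each tissue. Col11a2 was the sole chain with a negative value (-1.99, adjusted p = 0.696), at 1.44 and 0.757 CPM against 5.66 and 3.37 CPM.

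Small leucine-rich proteoglycans bind collagen fibrils and set their width. Dcn (decorin; chromosome 10, 97479609 to 97518143), a hallmark of fibroblasts, had 284 and 4 counts in omental tumor and 37 and 13 in spleen, or 37.2 and 1.01 CPM against 3.61 and 1.19 CPM. As with Col3a1, only OP2 was high. For Dcn, OP3 was the lowest of the 4 libraries. The log2 fold change of 3.00 missed the threshold (adjusted p = 0.105). It was 3.93 (adjusted p = 0.0154) without OP3 and -1.23 (adjusted p = 0.9503) without OP2. Bgn (biglycan) had 15 and 6 counts against 4 and 0 (log2 fold change 3.09, adjusted p = 0.610), and Lum (lumican), below the count filter, had 9 and 0 counts against 8 and 0.

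**Figure D2:**
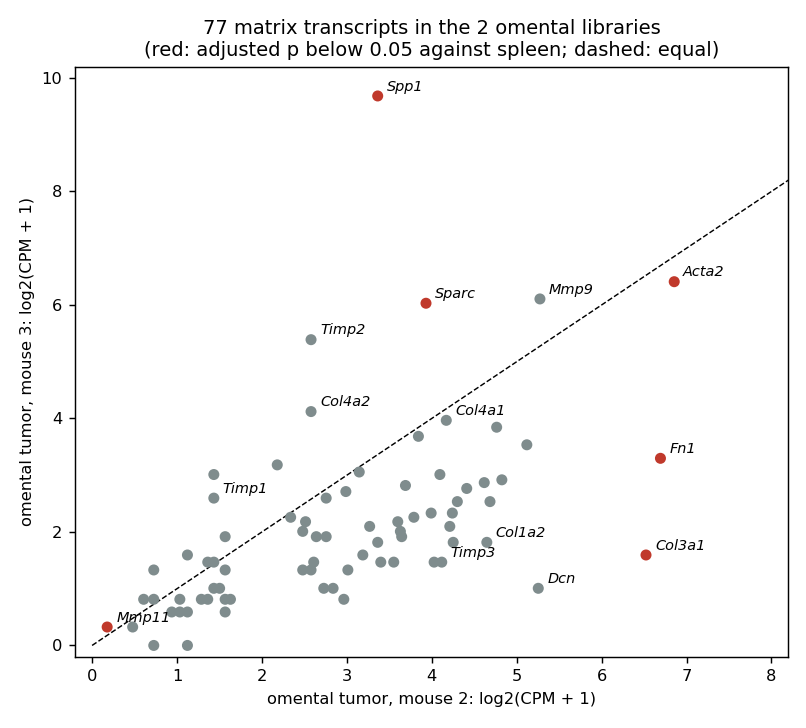
Each point is 1 of the 77 members, by its log2(CPM + 1) in the omental libraries of mouse 2 (x axis) and mouse 3 (y axis), with called members in red and a dashed line of equal levels. Col3a1, Fn1 and Dcn lie far to the mouse 2 side, Spp1, Sparc and Timp2 to the mouse 3 side, and Acta2 near the line.

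The most abundant matrix transcripts differed between the omental libraries. Col3a1, Dcn and Fn1 were 45.1, 36.8 and 11.6 times higher in OP2 than in OP3. Spp1, Timp2 and Sparc were 88.4, 8.22 and 4.51 times higher in OP3 than in OP2. Acta2 and Mmp9 differed less, Acta2 being 1.37 times higher in OP2 and Mmp9 1.80 times higher in OP3. Mouse 2 was the higher mouse for most members in both tissues, with 50 of 64 tested members higher in its omental library and 51 in its spleen library. Over all genes tested these shares were 68.1% and 53.7%, against 78.1% and 79.7% of the tested members. OP2 and SP2 are also the libraries with the larger share of entries assigned to no gene, whose part in the result was not tested.

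Levels per length were set beside those of olfactory receptor genes, which T cells are not known to use. The 1087 of them together stood at 0.616 and 0.319 CPM per kilobase of exon in omental tumor and 0.438 and 0.173 in spleen, so they too were higher in omental tumor and in mouse 2. The median member stood at 1.07 and 0.416 CPM per kilobase in omental tumor against 0.480 and 0.131 in spleen, above the olfactory receptor median of 0.271 and 0.0978 against 0.169 and 0.0397. The 95th percentile of the olfactory receptor genes was 1.97 and 0.849 CPM per kilobase in omental tumor and 1.54 and 0.756 in spleen. Above it lay 23 and 19 of the 77 members in omental tumor and 10 and 9 in spleen, and 46 members lay above it in no library. Acta2, Spp1, Mmp9 and Mmp8 exceeded it in all 4 libraries. The 293 olfactory receptor genes that passed the count filter had a median log2 fold change of 0.49, with 220 of them positive and 0 called by edgeR, DESeq2 or limma-voom, and 1 with an unadjusted p under 0.05.

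Per kilobase, Acta2 was the most abundant member in OP2, at 52.3 CPM per kilobase, followed by Mmp9 (10.6), Col3a1 (9.26), Fn1 (8.77) and Dcn (6.37). In OP3 the order was Spp1 (498), Acta2 (38.3), Mmp9 (19.2), Sparc (17.0) and Timp2 (10.5). No member exceeded 6.84 CPM per kilobase in spleen, where Acta2 and Spp1 led in mouse 2 and Mmp9 (3.84), Acta2 (2.45) and Spp1 (2.38) in mouse 3.

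**Figure D3:**
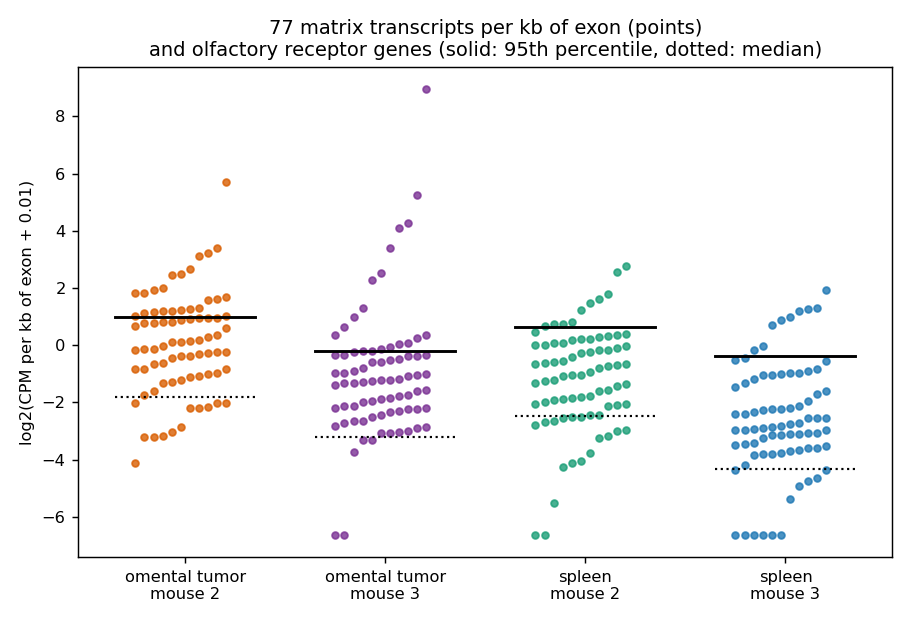
Points are the 77 members in each library on the log2(CPM per kb of exon + 0.01) axis, spread sideways for visibility, with the 95th percentile (solid) and the median (dotted) of 1087 olfactory receptor genes. Between 9 and 23 members lie above the solid line, and the lines themselves are higher in mouse 2 than in mouse 3.

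Basement membrane collagens form the sheet under epithelium and around vessels. All 6 chains of type IV collagen had positive log2 fold changes, with a median of 1.43, and 0 were called by edgeR without the block (2 at an unadjusted p under 0.05), 2 by DESeq2 and 0 by limma-voom. Col4a1 (chromosome 8, 11198423 to 11312826, minus strand) and Col4a2 (chromosome 8, 11312805 to 11449287, plus strand) encode the ubiquitous chains and start head to head, their annotated spans overlapping by 22 bases. Col4a1 had 130 and 58 counts in omental tumor and 45 and 10 in spleen, or 17.0 and 14.6 CPM against 4.39 and 0.912 CPM. Col4a2 had 38 and 65 counts against 11 and 2, or 4.97 and 16.4 CPM against 1.07 and 0.182 CPM. For both genes both omental libraries stood above both spleen libraries. Col4a1 had a log2 fold change of 2.57 (adjusted p = 0.274) and Col4a2 of 4.06 (adjusted p = 0.0591), and both were called with the replicate block, at 2.90 (adjusted p = 0.0233) and 3.97 (adjusted p = 0.00173).

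The other chains of type IV collagen, known from kidney, lung and smooth muscle, followed the mouse more than the tissue. Col4a5 stood at 20.3 and 5.80 CPM in omental tumor and 10.6 and 2.01 CPM in spleen, and Col4a3 at 14.9 and 4.04 against 7.41 and 0.821 CPM. Col4a6 stood at 4.97 and 1.51 CPM against 1.95 and 0.182 CPM. Mouse 2 was the higher in both tissues for each of these, and the tissues overlapped. Their adjusted p-values lay between 0.777 and 0.786.

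Beaded-filament, network and anchoring collagens had 9 of 12 members tested, 7 of them positive, with 0 called by edgeR without the block (2 at an unadjusted p under 0.05), DESeq2 or limma-voom. Col6a1, a chain of the beaded filaments around cells, had 82 and 7 counts in omental tumor and 10 and 0 in spleen, or 10.7 and 1.77 CPM against 0.975 and 0 CPM. Its log2 fold change of 3.67 missed the threshold (adjusted p = 0.222), and 3.98 with the replicate block was called (adjusted p = 0.00442). Its partner Col6a3 stood at 12.8 and 3.78 CPM against 3.02 and 0.456 CPM (2.26, adjusted p = 0.545). The tissues did not overlap for either chain, at low counts in mouse 3.

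Col7a1, the anchoring fibril of skin, stood at 4.06 and 3.78 CPM in omental tumor and 2.34 and 0.638 CPM in spleen (adjusted p = 0.794). The tissues overlapped for Col6a5 (18.1 and 2.52 against 6.24 and 1.09 CPM), Col6a6 (11.1 and 3.53 against 5.75 and 1.003 CPM) and Col28a1 (11.5 and 2.78 against 6.44 and 2.10 CPM). For all 3, mouse 2 was higher in both tissues, and their log2 fold changes were 1.5004, 1.13 and 0.76.

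Fibril-associated collagens, which decorate the surface of fibrils, showed little separation. Of 9 members 8 were tested, with a median of 0.45 and 0 called by edgeR with or without the block, DESeq2 or limma-voom, and 0 at an unadjusted p under 0.05. Col12a1 stood at 33.8 and 10.6 CPM in omental tumor and 15.99 and 2.74 CPM in spleen, Col19a1 at 27.3 and 6.56 against 19.1 and 4.92 CPM, and Col14a1 at 11.9 and 6.06 against 8.97 and 4.83 CPM. Each was higher in mouse 2 in both tissues. Col22a1 did not overlap, at 16.1 and 7.07 CPM against 5.56 and 0.638 CPM (log2 fold change 1.91, adjusted p = 0.583). Col9a1 stood at 8.64 and 3.28 against 4.88 and 0.821 CPM, and Col9a3 was lower in both omental libraries, at 0.916 and 0.505 against 3.22 and 1.82 CPM (-1.77, adjusted p = 0.777).

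Transmembrane collagens and multiplexins, the latter known as sources of the angiogenesis inhibitor endostatin, had 5 of 6 members tested and 0 called by edgeR with or without the block, DESeq2 or limma-voom (0 at an unadjusted p under 0.05). Col18a1, the precursor of endostatin, stood at 24.7 and 4.79 CPM in omental tumor and 2.93 and 6.11 CPM in spleen, so that the mice went opposite ways (log2 fold change 1.71, adjusted p = 0.599). Col15a1 stood at 3.53 and 8.07 against 1.66 and 2.46 CPM, above spleen in both mice without overlap (1.48, adjusted p = 0.771). Col25a1 stood at 26.2 and 13.4 against 14.7 and 1.82 CPM and Col17a1 at 4.58 and 3.03 against 1.66 and 0.638 CPM, with adjusted p of 0.711 and 0.754.

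**Figure D4:**
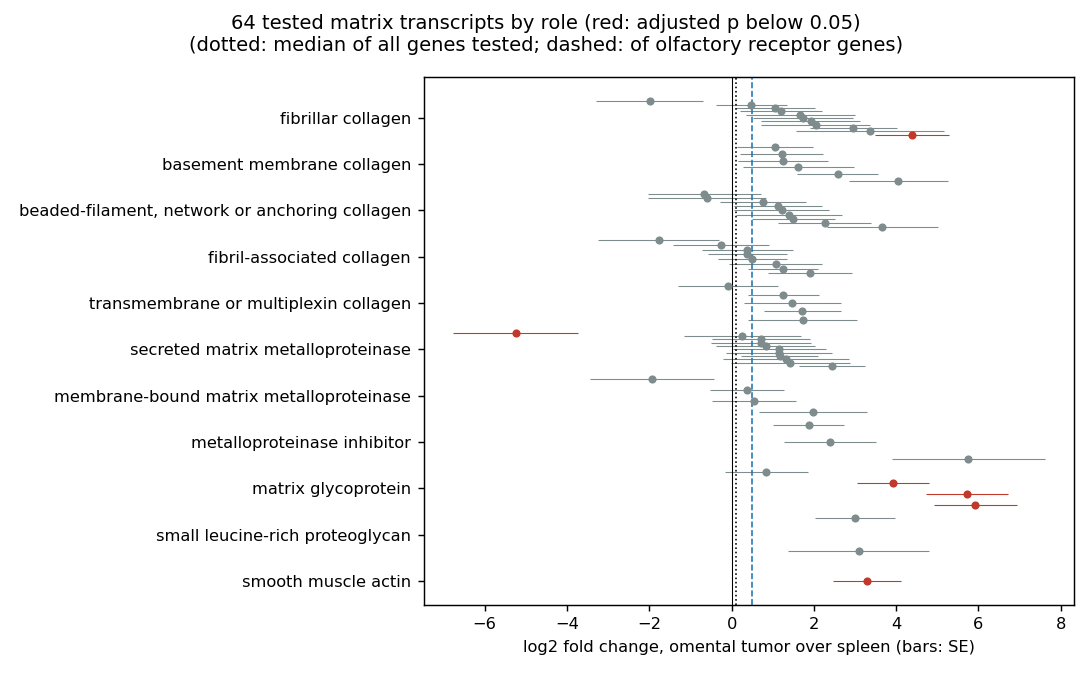
Log2 fold changes of the 64 tested members (x axis, omental tumor over spleen, bars SE) by role, with called members in red, a dotted line at the median of all genes tested (0.11) and a dashed line at that of olfactory receptor genes (0.49). Mmp11 is the single red point left of 0, and most collagens lie between 0 and 3.

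Secreted MMPs had 11 of 14 members tested, 10 of them positive and 1 called, Mmp11. Mmp11 (stromelysin-3; chromosome 10, 75923222 to 75936496) had 1 and 1 counts in omental tumor and 99 and 56 in spleen, or 0.131 and 0.252 CPM against 9.66 and 5.11 CPM. Both omental libraries were close to 0 and both spleens were well above them, so the groups did not overlap. Summed over libraries, spleen stood 42.4 times higher, with a 95% counting interval from 11.5 to 353 (exact binomial). The fitted log2 fold change was -5.25 (adjusted p = 0.0424), and -5.29 with the replicate block (adjusted p = 0.000251). The adjusted p was 0.106 and 0.560 without OP2 and OP3, and 0.380 without SP2. Exons of Chchd10 on the opposite strand cover 5.58% of the Mmp11 exon length, and the library kits do not mark strand.

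Mmp9, the gelatinase carried by neutrophils and macrophages (chromosome 2, 164940780 to 164955850), had 288 and 269 counts in omental tumor and 60 and 149 in spleen, or 37.7 and 67.9 CPM against 5.85 and 13.6 CPM. Both omental libraries stood above both spleens. The log2 fold change of 2.44 missed the threshold (SE 0.81, adjusted p = 0.128; with the replicate block 2.50, adjusted p = 0.0977), and Mmp9 was called by DESeq2 (2.57, adjusted p = 0.0455) and without OP2 (adjusted p = 0.0191). Mmp8, the neutrophil collagenase, stood at 13.3 and 11.9 against 7.31 and 3.92 CPM (1.17, adjusted p = 0.772), and Mmp12, the macrophage elastase, at 6.93 and 5.55 against 4.58 and 1.003 CPM (1.16, adjusted p = 0.803). These 2 were also higher in both omental libraries than in both spleens, by less than the test could call.

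Membrane-bound MMPs had 4 of 7 members tested and 0 called by edgeR with or without the block, DESeq2 or limma-voom (0 at an unadjusted p under 0.05). Mmp14, which activates pro-MMP2 at the cell surface, stood at 1.70 and 7.07 CPM in omental tumor and 0.975 and 1.19 CPM in spleen (log2 fold change 1.99, adjusted p = 0.699). Mmp25, the leukocyte form, stood at 18.7 and 4.79 against 6.14 and 12.1 CPM, with the mice moving opposite ways (0.37, adjusted p = 0.915). Mmp16 stood at 7.85 and 7.32 against 7.61 and 2.74 CPM. Mmp15 was lower in both omental libraries, at 0.523 and 0.757 against 2.05 and 2.83 CPM (-1.93, adjusted p = 0.764).

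The inhibitors of MMPs had 3 of 4 members tested, all with positive log2 fold changes, and 0 called by edgeR without the block (3 at an unadjusted p under 0.05), DESeq2 or limma-voom. Timp1, the form induced by inflammation (chromosome X, 20870166 to 20874735), had 13 and 20 counts in omental tumor and 0 and 1 in spleen, or 1.70 and 5.05 CPM against 0 and 0.0912 CPM. The groups did not overlap. Summed over libraries, omental tumor stood 60.3 times higher, with a 95% counting interval from 10.1 to 2454 (exact binomial). The fitted log2 fold change of 5.76 had an adjusted p of 0.108, and 5.84 with the replicate block was called (adjusted p = 0.00412).

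Timp2 stood at 4.97 and 40.9 CPM in omental tumor and 4.78 and 7.66 CPM in spleen (log2 fold change 1.87, adjusted p = 0.484), high in OP3 alone. Without OP3 its value turned to -0.33, and without OP2 it was called (2.71, adjusted p = 0.0286). Timp3, the matrix-bound inhibitor, stood at 16.4 and 1.77 against 2.93 and 0.547 CPM (2.39, adjusted p = 0.484), high in OP2 alone. Exons of Syn3 on the opposite strand cover 21.3% of the Timp3 exon length. Timp4, with at most 6 counts in a library, was not tested. Timp1 alone of the 3 tested inhibitors was higher in both omental libraries than in both spleens.

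The 13 members below the count filter were Col6a2, Col8a2, Col9a2, Col13a1, Col26a1, Lum, Mmp7, Mmp17, Mmp21, Mmp23, Mmp24, Mmp28 and Timp4. No library held more than 52 counts of any of them, that being Col6a2, a partner of Col6a1, in OP2 (52 and 3 counts in omental tumor, 4 and 12 in spleen). Mmp23 had 15 and 3 counts in omental tumor and 1 and 1 in spleen, a ratio of 16.5 with a 95% counting interval from 3.94 to 146 (exact binomial). A count of 0 allows up to 3 counts, or between 0.274 and 0.757 CPM depending on the library, and these limits and intervals cover counting error only.

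No gene that makes or cross-links collagen passed the test. Of 19 tested from 25 in the files, 0 were called by edgeR with or without the block, DESeq2 or limma-voom, 2 had an unadjusted p under 0.05, and 15 were positive, with a median of 0.83. P4hb, the disulfide isomerase subunit of prolyl hydroxylase, stood at 323 and 141 CPM in omental tumor and 301 and 393 CPM in spleen, and P4ha1, the catalytic subunit, at 86.5 and 44.7 against 114 and 174 CPM. Both serve every cell that folds secreted protein or adapts to low oxygen, and neither was higher in omental tumor in both mice. The 2 with an unadjusted p under 0.05, Serpinh1 and P3h3, were higher in both omental libraries than in both spleens. Serpinh1 stood at 4.19 and 1.26 against 0.195 and 0.274 CPM (log2 fold change 3.48, adjusted p = 0.477). P3h3 stood at 4.06 and 12.9 against 1.85 and 1.55 CPM (2.29, adjusted p = 0.538).

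Of the receptors for collagen, fibronectin and osteopontin, Cd44 and Itga4 were the 2 most abundant, and Mrc2 was at 0 counts in SP3. Of 19 tested, 0 were called by edgeR with or without the block, DESeq2 or limma-voom, and 13 were positive, with a median of 0.31. In edgeR without the block, 1 had an unadjusted p under 0.05, Itgav. It stood at 82.7 and 110 CPM in omental tumor and 22.7 and 25.1 CPM in spleen (log2 fold change 2.01, adjusted p = 0.300). Cd44, a receptor for hyaluronan and osteopontin, stood at 335 and 343 CPM in omental tumor and 206 and 363 CPM in spleen, and Itga4, the integrin chain that binds fibronectin, at 344 and 152 against 379 and 464 CPM. The 6 genes of TGF-beta ligands and receptors, the classical inducers of collagen, had 0 calls by the same fits, 0 at an unadjusted p under 0.05 and a median of -0.87. The T lineage genes had a like median of -0.86, and the sort genes of -0.90. Tgfbr2 stood at 146 and 30.5 against 353 and 97.2 CPM and Tgfbr1 at 84.7 and 43.1 against 182 and 165 CPM, lower in omental tumor within each mouse.

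In the plasminogen system, which feeds MMP activation, 1 of 6 tested genes was called. Plaur, the receptor that gathers urokinase on leukocytes, stood at 20.0 and 199 CPM in omental tumor and 3.71 and 1.28 CPM in spleen (log2 fold change 5.45, adjusted p = 2.28e-06; with the replicate block 4.79, adjusted p = 0.00197). Both omental libraries were above both spleens, mouse 3 the higher. Serpine2, a protease inhibitor, stood at 7.85 and 4.79 against 5.36 and 3.19 CPM (adjusted p = 0.896).

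Markers of other cells moved with some of these transcripts, and their part in the results was not tested. Neutrophil genes summed to 111 and 1385 CPM in omental tumor and 89.7 and 59.2 CPM in spleen, highest in OP3, where Spp1 and Timp2 were also high, and 4 of 7 tested were called higher (0 with the replicate block). Sparc was above spleen in OP2 too. In that library S100a8 and S100a9 were below both spleens, Csf3r, Retnlg, Cxcr2 and Ltf were above both, and Camp and Ngp lay between them. S100a9 and S100a8, the most abundant of the neutrophil genes, stood at 1.57 and 474 CPM and at 0.131 and 410 CPM in omental tumor, against at most 9.48 CPM in spleen. Csf3r stood at 27.9 and 275 against 21.7 and 4.83 CPM and Retnlg at 3.53 and 38.6 against 2.93 and 0.547 CPM. Macrophage genes did not move one way: their sum was 458 and 757 against 209 and 437 CPM, but 4 of 10 had positive log2 fold changes, with a median of -0.43. Csf1r, the receptor that defines the lineage, stood at 38.6 and 14.4 against 69.6 and 109 CPM and Mrc1 at 17.4 and 5.55 against 23.3 and 37.7 CPM, neither of them called. The 2 called higher were Lyz2 at 249 and 296 against 6.83 and 61.6 CPM, and Cd14 at 23.7 and 272 against 2.63 and 4.83 CPM.

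Fibroblast genes outside the members summed to 110 and 69.6 CPM in omental tumor and 77.2 and 105 CPM in spleen. Of 7 tested, 5 had positive log2 fold changes, with a median of 0.99, and Gsn and Dpt were negative. Calls by edgeR with or without the block, DESeq2 or limma-voom numbered 0, and 2 had an unadjusted p under 0.05. Gsn and Dpt aside, every gene of the list was higher in the omental library than in the spleen library of each mouse. Gsn, an actin-severing protein that leukocytes also make, was the largest part of that sum in every library, at 56.1 and 29.3 against 53.5 and 95.4 CPM. Cd34 stood at 13.6 and 12.6 against 4.68 and 1.55 CPM. Pdgfra, a receptor that defines fibroblasts, stood at 10.5 and 3.28 CPM against 1.85 and 0.730 CPM (log2 fold change 2.41, adjusted p = 0.538), highest in OP2, as were Col3a1, Fn1 and Dcn. Pdgfrb, Dpt, Fap, Mfap5, Loxl1 and Cd34 were also highest in OP2. Pi16, at 0.785 and 7.07 CPM in omental tumor, and Serpinf1, at 5.10 and 7.57 CPM, were highest in OP3. Mfap5 was at 0 in the spleen of mouse 3.

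Mesothelial genes, which mark the lining of the omentum, summed to 80.6 and 26.5 CPM in omental tumor and 12.4 and 3.83 CPM in spleen. Upk1b was the 1 called gene of 3 tested, at 60.3 and 19.4 against 5.75 and 1.46 CPM (log2 fold change 3.47, adjusted p = 0.00814). Krt18 stood at 4.32 and 4.29 against 1.17 and 1.09 CPM. Below the count filter, Msln had 33 and 3 counts against 7 and 2, Upk3b 11 and 3 against 1 and 3, and Krt19 7 and 1 against 2 and 0. In CPM, all of these were higher in both omental libraries than in both spleens. The tissues overlapped for Krt8, Lrrn4 and the defining gene Wt1, which had 12 and 0 counts against 3 and 0. Mural genes summed to 32.6 and 10.6 against 13.1 and 6.75 CPM, led by Myh11 and by Rgs5 at 6.41 and 2.52 against 4.68 and 1.19 CPM, with 0 of 3 tested called by edgeR with or without the block, DESeq2 or limma-voom and 0 at an unadjusted p under 0.05. Endothelial genes summed to 114 and 64.1 against 222 and 257 CPM, led by Pecam1, which T cells also carry, at 79.8 and 31.0 against 207 and 254 CPM, and by Kdr at 18.6 and 4.29 against 6.34 and 1.37 CPM. Pecam1 aside, every endothelial gene was higher in the omental library than in the spleen library of each mouse. Of the 6 tested, 5 had positive log2 fold changes, with a median of 1.66. Without the block 0 were called (3 at an unadjusted p under 0.05, 0 by DESeq2 or limma-voom). With it 1 was called, Eng, a TGF-beta co-receptor, at 4.32 and 5.55 against 0.195 and 0.730 CPM. Adipocyte genes summed to 7.59 and 45.7 against 4.97 and 2.83 CPM, with Fabp4 called (2.36 and 44.2 against 1.85 and 1.28 CPM; also a gene of macrophages), Lep at 3.66 and 0.252 against 2.15 and 0.456 CPM and the defining gene Plin1 at 0 in 3 of the 4 libraries. B and plasma cell genes summed to 542 and 29.0 against 196 and 236 CPM, led by Jchain (464 and 5.30 against 149 and 186 CPM) and Cd79b (19.4 and 15.1 against 28.9 and 41.7 CPM), with 0 of 5 tested called by edgeR with or without the block, DESeq2 or limma-voom and 1 at an unadjusted p under 0.05.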

How the data were processed

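Sorted Tregs of 2 mice gave 2 omental tumor and 2 spleen libraries. The authors deposited raw read counts per gene symbol. Per the submitters' processing notes these came from Trim Galore, TopHat2, SAMtools and HTSeq with the mouse build mm10. Their versions, the annotation and whether strand was used: not given in the sources used here. Per the labels' protocols, SMART-seq v4 and Nextera XT made the libraries. The 5 HTSeq summary entries were left out; genes held 17.1% and 22.2% of the omental entries and 24.9% and 46.0% of the spleen entries.

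Analysis used R 4.3.3 and edgeR 4.0.16. Counts passed filterByExpr (minimum 10), were scaled by TMM on the gene totals, and were tested for tissue alone (estimateDisp, glmQLFit, glmQLFTest at their defaults, Benjamini-Hochberg over 16322 genes). SE is the absolute log2 fold change over the root of F. The prior degrees of freedom were infinite, so neither SE nor p reflects a gene's own spread between mice. Scaling by library gene totals, which the member rule names, was an alternative. The scripts were tested on simulated data. Mouse numbers mark the same animal, so libraries were paired in the replicate block; same-mouse deviations from tissue means correlated at 0.234. Exon lengths, positions and overlaps came from GENCODE release M21, matched for 77 of 77 members. Members given by name are the called ones and, in each role group, the 4 with the smallest p and the 3 with the highest mean CPM; members below the filter are given by name and counts; in other lists, called genes and the 2 most abundant. Named beyond this rule were Col1a1, Col11a2, markers at 0, Csf1r, Mrc1, Pdgfra, Eng, Itgav, Serpinh1, P3h3 and further neutrophil, fibroblast, mural and mesothelial markers. These were chosen after their values were seen. So were the counts singled out below the filter (Col6a2, Mmp23). The olfactory receptor comparison was also added after seeing the data. Members and lists were chosen with earlier results of these data known. Alternatives used DESeq2 1.42.0 and limma-voom 3.58.1, RLE factors, other filters, the block and leaving out each library.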

Additional observations from a re-analysis of the deposited data

How the results depend on the processing

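No member's call held under every setting. With library gene totals alone, which moved the median of all genes from 0.11 to 0.36 on the log2 scale, 0 members were called (14 at an unadjusted p under 0.05), against 24 genes higher and 2 lower in all, and Col16a1 and Col23a1 turned from -0.26 and -0.08 to 0.14 and 0.23; adjusted p was 0.135 for Acta2, 0.140 for Sparc, 0.173 for Spp1, 0.274 for Col3a1, 0.357 for Fn1 and 0.3635 for Mmp11. A minimum count of 50 called 0 genes of 10803, and 7 of 23 members had an unadjusted p under 0.05. Neither setting called any pathway or other-cell gene (1 and 8 higher otherwise). Fewer genes reach the higher minimum; other causes were not tested. All genes called higher and lower, 178 and 37, became 107 and 56 with limma-voom, and lower calls became 124 with DESeq2 and 67 with the replicate block. Members called lower became 0 with limma-voom and with the newer form of glmQLFit, added after seeing the data because the planned older form is this version's default. The replicate block changed the calls of Spp1, Col3a1, Col4a1, Col4a2, Col6a1 and Timp1 (7 members higher and 1 lower) and of no other member, and left 4 other-cell markers called higher, as did limma-voom.

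Leaving out 1 library gave 0 to 6 members higher and 0 to 1 lower, 27 to 323 genes higher and 5 to 321 lower, 0 to 1 pathway genes higher, and 0 to 8 other-cell markers higher and 0 to 1 lower; the remaining library of that tissue takes its variance from the other pair. Members called higher fell to 1 without SP2 and to 0 without SP3. Without OP2 the log2 fold change reversed for 12 of the members given by name with values (over all 64 tested, positive values fell from 56 to 38); the ranges of the 12 over the 4 omissions were -0.77 to 1.32 (Col11a1), -0.19 to 0.90 (Col14a1), -0.87 to 1.79 (Col19a1), -0.62 to 1.78 (Col28a1), -0.14 to 5.33 (Col3a1), -0.026 to 3.52 (Col4a3), -0.12 to 2.70 (Col4a5), -0.40 to 3.21 (Col5a2), -0.54 to 3.23 (Col6a5), -1.23 to 4.002 (Dcn), -0.93 to 1.06 (Mmp25) and -1.435 to 3.73 (Postn). Timp2 reversed without OP3 (-0.33 to 2.73), Col19a1 also without SP3 (-0.06) and Mmp25 also without SP2 (-0.03). Depth limits members at a few counts, above all in OP3.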
